A study of Caenorhabditis elegans with 12 samples.

Results

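The mir-44, mir-61 and mir-247 precursors of Caenorhabditis elegans give 5 mature miRNA arms that are described here. They are the guide arms cel-miR-44-3p, cel-miR-61-3p and cel-miR-247-3p with the second arms cel-miR-44-5p and cel-miR-61-5p. The prefix cel, for the species, is left out from here on. The arms were chosen by name, with earlier results of these data known, out of 471 features in the deposited count table. All 5 passed the filter on low counts, as did 250 features in all. The 12 small RNA libraries came from whole animals at L4, the last larval stage, with 3 biological replicates for each of 4 genotypes, and were made to ask how miRNA levels depend on the mbl-1 gene. The genotypes were wild type (N2), the mutant mbl-1(tm1563), and a pair of mbl-1 lines, syb4318 and syb4345, of which each makes MBL-1 protein of a single size class, short or long. The count columns of these lines carry codes, called ME and SH here after the authors' comparison tables. No label ties a code to an allele or to an isoform length, so each line goes by its code and neither is given a length. That the columns named for mbl-1 with no line code belong to tm1563 was inferred from that name. All animals were synchronized by bleaching, fed OP50 bacteria and harvested at the same stage, and no other allele or agent is named for any group.

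A miRNA hairpin is cut into a duplex of a 5′ and a 3′ arm. The guide arm is kept in an Argonaute protein and pairs with target mRNAs through its seed near the 5′ end, while most copies of the other arm are degraded. The guide arms of mir-44, mir-45, mir-61 and mir-247 share a seed and are counted as 1 family. In C. elegans the mir-44 family promotes the sperm fate in the hermaphrodite germ line, which makes its sperm during the L4 stage, and miR-61 acts in LIN-12/Notch signalling between the vulval precursor cells, where it represses vav-1. MBL-1 is the worm Muscleblind, an RNA-binding protein that regulates splicing.

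The members come from 3 chromosomes (genome build WBcel235, Ensembl 115 annotation). The mir-44 gene lies at chrII:11890023-11890118 on the plus strand, 15 bases beyond mir-43, which itself lies 4 bases beyond mir-42, and overlaps no other annotated gene. Its arms are miR-44-5p at 11890038 to 11890059 and miR-44-3p at 11890083 to 11890103. The mir-45 gene lies 8983 bases away on the same chromosome, on the minus strand at chrII:11880944-11881039, within the non-coding RNA gene ZK930.13 of the other strand. The mir-61 gene lies at chrV:11770060-11770156 on the minus strand, 44 bases from mir-250, with miR-61-5p at 11770111 to 11770132 and miR-61-3p at 11770076 to 11770096. The mir-247 gene lies at chrX:4756971-4757068 on the plus strand, 40 bases before mir-797, with miR-247-3p at 4757031 to 4757052. Neither mir-61 nor mir-247 overlaps another annotated gene. The mature arms of miR-44-3p and miR-45-3p have the same sequence, so a read cannot be assigned to either, and counts listed under miR-44-3p may come from both genes.

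Library totals lay between 6946205 and 12053039 counts, so 3 counts, taken as the floor, correspond to 0.244 to 0.450 CPM (each library's counts scaled to a common total, with TMM factors for library composition). Wild-type library 1 stood apart, with 326 features detected against 365 to 400 in the other libraries and the lowest TMM factor, 0.788. In ME library 1, miR-1-3p, the miRNA of muscle, took 12.5% of the counts against 15.5% to 23.3% in the others. The markers chosen for other tissues were all detected, with none at 0 in any library. Averaged by genotype, miR-1-3p held 18.1% to 20.9% of the counts. The 5 larval timing miRNAs summed to 58103 CPM in wild type, most of it miR-48-5p (45215 CPM), and to 58928 to 60810 CPM in the mutants. For both lists edgeR made 0 calls in every comparison, with 0 at an unadjusted p under 0.05 and 0 by DESeq2. Of all features, edgeR called 2.00% to 14.4% by comparison, and 14.4% to 32.4% had an unadjusted p under 0.05. The 3 neuronal miRNAs summed to 129.5 ± 35.0 CPM in wild type, 320.8 ± 19.1 in tm1563, 59.5 ± 15.2 in ME and 162.5 ± 56.4 in SH animals (SD, n = 3 each). Most of each sum was miR-790-5p (124.6 CPM in wild type and 313.5 in tm1563), the 1 member that edgeR called against wild type, higher in tm1563 (1.33, adjusted p = 0.00738) and lower in ME animals (-1.16, adjusted p = 0.0129). The log2 fold change of miR-124-3p in tm1563 was 0.005 (SE 0.48). That of miR-791-3p, at 1.255 CPM in wild type, was 1.74 (SE 0.58, edgeR adjusted p = 0.0649). The part of these markers in the levels of the 5 arms was not tested. In whole animals, fewer cells of a type and less RNA per cell cannot be told apart. The 3 comparisons against wild type share the wild-type libraries.

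The guide arm miR-44-3p was by far the most abundant member and did not differ detectably between genotypes. It stood at 65917, 45439 and 49560 CPM in wild type, 68310, 48185 and 41065 in tm1563, 41013, 50354 and 72595 in ME and 44126, 66878 and 33679 in SH. The libraries of the 4 genotypes overlapped, and within each genotype the highest library exceeded the lowest by more than any difference between the group means. These means were 53639 ± 10831 CPM in wild type, 52520 ± 14130 in tm1563, 54654 ± 16224 in ME and 48228 ± 16975 in SH animals (SD, n = 3 each), or 4.87% to 5.41% of all counts. In the edgeR fit across all features its log2 fold changes lay between -0.15 (SH line against wild type) and 0.18 (ME against SH line), each with an SE of 0.27. The 95% interval of the ME line against wild type was -0.55 to 0.60 and that of tm1563 against wild type -0.61 to 0.54, so changes of that size could not be detected. The sign of these values varied with scaling, and with RLE size factors the value of the ME line against wild type was -0.071.

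The second arm of the same hairpin, miR-44-5p, was rare and was higher in the ME line. Its level was 11.21, 11.67 and 10.65 CPM in the wild-type libraries, 20.45, 15.75 and 11.09 in tm1563, 11.95, 14.32 and 11.64 in the SH line, and 59.22, 18.81 and 46.75 in the ME line. Only tm1563 library 1 exceeded ME library 2, and the other 2 ME libraries lay above every library of the other genotypes. The counts behind these levels ran from 75 to 201 per library outside the ME line and were 477, 152 and 312 in it. Against wild type the mean rose from 11.2 ± 0.511 to 41.6 ± 20.7 CPM (SD, n = 3 each), or 3.72-fold, and its log2 fold change was 1.89 with an SE of 0.34 (edgeR adjusted p = 0.00320). Without ME library 1, the highest of the 12, the value was 1.52 (edgeR adjusted p = 0.0151), and the call was made in each of the 6 fits that left out 1 library of these groups. The authors' deposited table for the ME line lists miR-44-5p at a log2 fold change of 1.53 with an adjusted p of 0.000184.

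**Figure D1:**
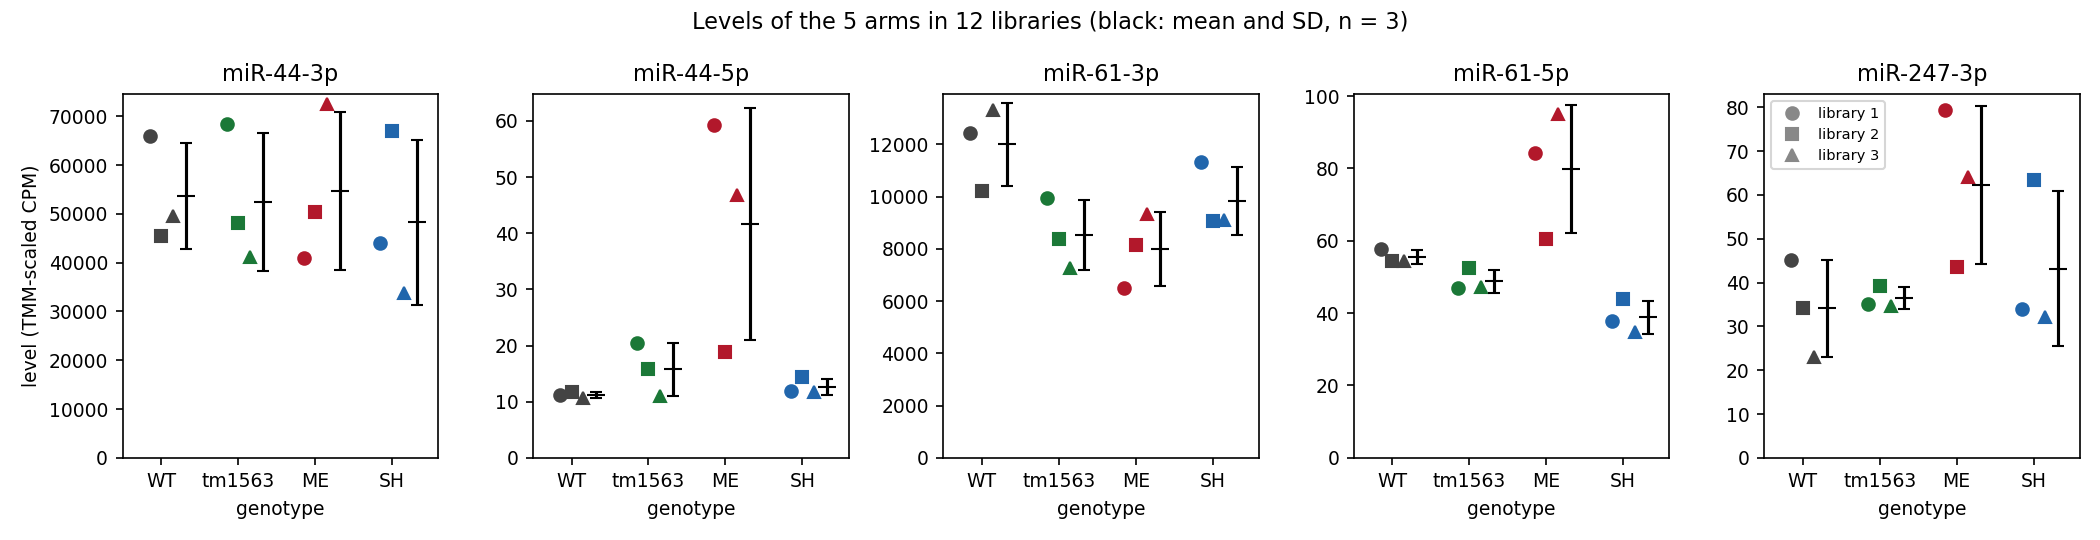
Level of each of the 5 arms (TMM-scaled CPM, y axis, starting at 0) by genotype (x axis); each symbol is 1 library, marked by its library number, and the black bars are the mean and SD of 3 libraries. miR-44-3p overlaps in all genotypes, miR-44-5p averages 41.6 CPM in the ME line against 11.2 in wild type, and miR-61-3p averages 7997 CPM in the ME line against 11996.

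The rise of miR-44-5p in the ME line was also larger than in the other mbl-1 genotypes. Between the ME and SH lines, whose miR-44-5p libraries did not overlap, the log2 fold change was 1.72 (SE 0.34, edgeR adjusted p = 0.00335). The value of tm1563 against the ME line was -1.40 (SE 0.33, edgeR adjusted p = 0.0144), a call that was lost without tm1563 library 3 (-1.21, edgeR adjusted p = 0.0604) and without both wild-type library 1 and ME library 1 (-1.04, edgeR adjusted p = 0.0612). Neither tm1563, with a mean of 15.8 ± 4.68 CPM, nor the SH line, with 12.6 ± 1.47 CPM, differed detectably from wild type. Their log2 fold changes were 0.50 (SE 0.33, 95% interval -0.21 to 1.21) and 0.18 (SE 0.34, -0.54 to 0.90). In order of level the genotypes ran from wild type through the SH line and tm1563 to the ME line, and the first 3 were not separated beyond their spread.

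The guide arm miR-61-3p was lower than wild type in the ME line. It stood at 12428, 10230 and 13330 CPM in wild type, 9960, 8370 and 7280 in tm1563, 6510, 8164 and 9315 in ME and 11339, 9054 and 9091 in SH. Every tm1563 and ME library lay below every wild-type library, while the SH libraries overlapped with them. The mean fell from 11996 ± 1594 CPM in wild type to 7997 ± 1410 in the ME line (SD, n = 3 each; log2 fold change -0.59, SE 0.18, edgeR adjusted p = 0.0454). In tm1563 the mean was 8537 ± 1348 CPM and the log2 fold change -0.49 (SE 0.18), which missed the threshold (edgeR adjusted p = 0.0958), and in the SH line 9828 ± 1309 CPM and -0.29 (SE 0.18, 95% interval -0.68 to 0.10). In order of level wild type came first, then the SH line, tm1563 and the ME line, and no neighbours in that order differed past the threshold.

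The call of miR-61-3p lay close to the threshold and depended on the libraries and settings used. For the ME line it was lost without wild-type library 1 or 3 or ME library 1 or 2, at edgeR adjusted p values of 0.0725, 0.170, 0.152 and 0.0847, while the log2 fold change stayed negative in all 6 such fits (-0.81 to -0.49). It was also lost with library totals (-0.53, edgeR adjusted p = 0.0780), with only these 2 groups fitted (-0.62, adjusted p = 0.0818) and without both wild-type library 1 and ME library 1 (-0.44, adjusted p = 0.194), and was made with RLE size factors, without a filter and by DESeq2 (-0.69 to -0.65). For tm1563, DESeq2 called it lower (-0.55, adjusted p = 0.0415), as did edgeR with only tm1563 and wild type fitted (-0.60, adjusted p = 0.0330). The authors' deposited tables list miR-61-3p as lower in both genotypes, at -0.63 in the ME line and -0.54 in tm1563. In the same genotypes miR-246-3p, a miRNA of the gonadal sheath, was also lower, at 2928 ± 252 CPM in tm1563 and 2274 ± 599 in the ME line against 4562 ± 296 in wild type and 4300 ± 511 in SH animals (SD, n = 3 each). The 8 guide arms of the mir-35 family, which mark embryos and the germ line, summed to 1379 to 1593 CPM in wild type, 1675 to 1957 in tm1563, 1431 to 1878 in ME and 1707 to 1892 in SH, with 0 calls by edgeR or DESeq2 against wild type and 2, 1 and 2 members at an unadjusted p under 0.05 in tm1563, ME and SH. Of all features, 25.6%, 32.4% and 14.4% had an unadjusted p under 0.05 in these 3 comparisons, and edgeR called 10.0%, 13.6% and 2.00%. The part of miR-246-3p or of the mir-35 family in the level of miR-61-3p was not tested.

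The second arm miR-61-5p was higher in the ME line than in the SH line and tm1563, and no difference from wild type passed the test. Its level was 57.69, 54.51 and 54.29 CPM in wild type, 46.91, 52.51 and 47.10 in tm1563, 84.18, 60.52 and 95.01 in ME and 37.73, 43.86 and 34.79 in SH. The 4 genotypes did not overlap with each other in any pair, running upward from the SH line through tm1563 and wild type to the ME line. The largest gap was that between the isoform lines, 79.9 ± 17.6 CPM in ME against 38.8 ± 4.63 in SH (SD, n = 3 each), where the log2 fold change was 1.04 with an SE of 0.19 (edgeR adjusted p = 0.00232). This was called in each of the 6 fits without 1 library (0.77 to 1.19). Between tm1563 (48.8 ± 3.18 CPM) and the ME line it was -0.71 (SE 0.19, edgeR adjusted p = 0.0237), a call kept in 2 of 6 such fits and lost without any 1 of the tm1563 libraries or ME library 3 (edgeR adjusted p from 0.0594 to 0.0837). That call was also lost with library totals (-0.65, edgeR adjusted p = 0.0890) and without both wild-type library 1 and ME library 1 (-0.66, adjusted p = 0.0894). Against the wild-type mean of 55.5 ± 1.90 CPM, the log2 fold changes of 0.53 in ME (SE 0.19), -0.52 in SH (SE 0.19) and -0.18 in tm1563 (SE 0.19) did not pass (edgeR adjusted p = 0.0691, 0.217 and 0.571).

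The third guide arm, miR-247-3p, was rare and no comparison of it passed the test. Its level was 45.14, 34.14 and 23.00 CPM in wild type, 35.21, 39.26 and 34.64 in tm1563, 79.33, 43.44 and 63.99 in ME and 33.87, 63.49 and 32.04 in SH. ME library 2 lay within the wild-type range, and ME libraries 1 and 3 lay above all libraries of the other genotypes. The means were 34.1 ± 11.1, 36.4 ± 2.52, 62.3 ± 18.0 and 43.1 ± 17.7 CPM (SD, n = 3 each). For the ME line against wild type the log2 fold change was 0.87 (SE 0.30, 95% interval 0.24 to 1.51), with an edgeR adjusted p of 0.0583. The test of that value depended on the setting. It was missed without ME library 1 (0.63, edgeR adjusted p = 0.226), ME library 3 (0.73, adjusted p = 0.127), wild-type library 2 (0.88, adjusted p = 0.113) or wild-type library 3 (0.66, adjusted p = 0.206), and without both wild-type library 1 and ME library 1 (0.90, adjusted p = 0.111). It was also missed with RLE size factors (0.77, edgeR adjusted p = 0.0709) and with only these 2 groups fitted (0.83, edgeR adjusted p = 0.0818). A replicate block (0.91, edgeR adjusted p = 0.0601) and DESeq2 (0.785, DESeq2 adjusted p = 0.05075) missed it as well. The test was passed with library totals in place of TMM (0.96, edgeR adjusted p = 0.0373), without a filter on low counts (0.80, adjusted p = 0.0417), without wild-type library 1 (1.12, adjusted p = 0.0320) and without ME library 2 (1.11, adjusted p = 0.0273). The second arm of this hairpin, miR-247-5p, had under 3 counts in every library and was not tested.

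By comparison, the 5 arms held 6 calls by edgeR, all in comparisons with the ME line. Of the 5, 1 was higher and 1 lower in the ME line against wild type, where edgeR called 13.6% of the 250 features tested, 7.60% higher and 6.0% lower. At an unadjusted p under 0.05 there were 4 members, with 32.4% of all features. Between the ME and SH lines 2 were higher in the ME line (of all features, 14.4% were called and 10.8% were called higher), and both of these are second arms. No other member had an unadjusted p under 0.05, as 26.4% of all features did. The same 2 arms were lower in tm1563 than in the ME line (of all features, 9.60% were called and 4.0% were called lower), and 3 members had an unadjusted p under 0.05 (27.2% of all features). Against wild type, edgeR made 0 calls among the 5 in tm1563 (10.0% of all features called), with 1 member at an unadjusted p under 0.05 (25.6% of all features) and 1 called by DESeq2. In the SH line it made 0 (2.00% called), with 1 member at an unadjusted p under 0.05 (14.4% of all features) and 0 called by DESeq2. Between tm1563 and the SH line it made 0 as well (2.00% called), with 0 at an unadjusted p under 0.05 (17.2% of all features) and 0 by DESeq2. The counts in 5 members were not tested against these shares.

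The median log2 fold change of the 5 arms was 0.53 in the ME line against wild type, where that of all features was 0.07, and 0.53 against 0.13 between the ME and SH lines. Between tm1563 and the ME line the median was -0.71, with -0.04 over all features. In the remaining comparisons it lay between -0.15 and 0.12, with -0.04 to 0.09 over all features. Libraries did not overlap for 3 of the 5 arms in the ME line against wild type (34.0% of all features), for 2 in tm1563 against wild type (34.4%), for 1 in the SH line against wild type (17.2%), for 2 between the ME and SH lines (30.4%), for 2 between tm1563 and the ME line (34.0%) and for 1 between tm1563 and the SH line (22.8%).

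**Figure D2:**
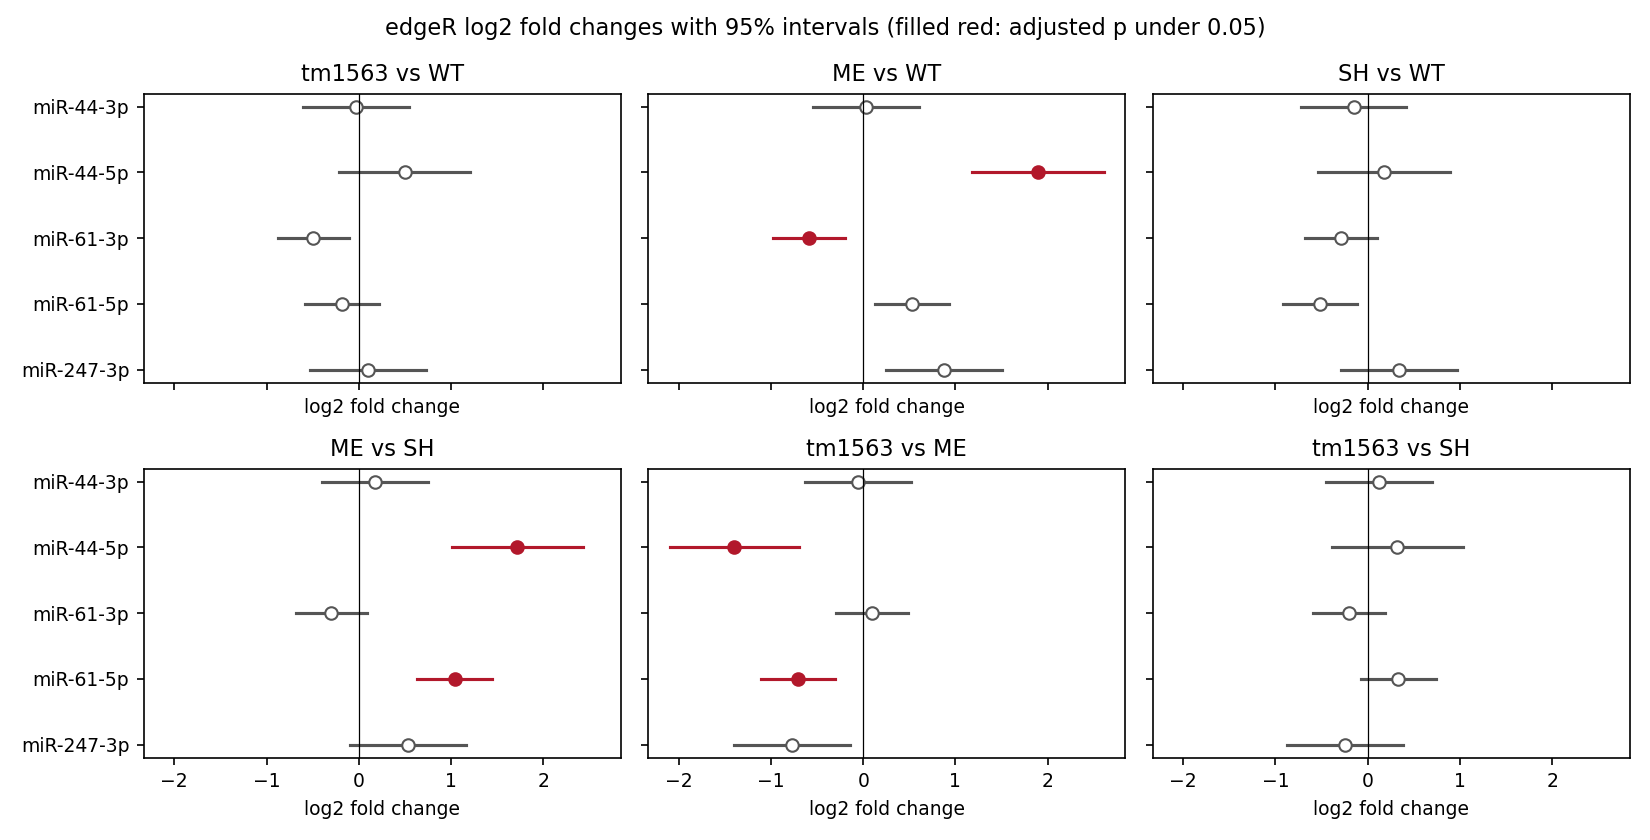
Log2 fold change of each arm (x axis) with its 95% interval in the 6 comparisons, from the edgeR fit across all 250 features; filled red symbols have an adjusted p under 0.05. The calls are miR-44-5p and miR-61-3p in the ME line against wild type (1.89 and -0.59), and miR-44-5p and miR-61-5p between the ME and SH lines (1.72 and 1.04) and between tm1563 and the ME line (-1.40 and -0.71).

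The ratio of the second arm to the guide arm within a library does not depend on how libraries are scaled. For mir-44 it may not compare arms of a single hairpin, since counts of miR-44-3p may hold reads of mir-45. The 5p to 3p ratio of both mir-44 and mir-61 was highest in the ME line, for mir-44 with miR-44-5p as the only 5p count. In wild type 5881, 3895 and 4655 reads of miR-44-3p were counted for each read of miR-44-5p, and in tm1563 3340, 3059 and 3703. The SH line had 3691, 4669 and 2893 and the ME line 692.5, 2677 and 1553, so that all 3 ME libraries lay below every other library. On the log2 scale the ratio of 5p to 3p counts averaged -12.20 ± 0.30 in wild type, -11.71 ± 0.14 in tm1563, -11.84 ± 0.35 in SH and -10.47 ± 0.98 in the ME line (SD, n = 3 each). The 4 genotypes differed by an exact permutation test over all 369600 assignments of the 12 libraries (p = 0.00279, adjusted p = 0.00558 over 4 ratios).

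For mir-61, 215.4, 187.7 and 245.5 reads of miR-61-3p were counted for each read of miR-61-5p in wild type and 212.3, 159.4 and 154.6 in tm1563. The SH line had 300.5, 206.5 and 261.3, and the ME line 77.34, 134.9 and 98.05. The ME libraries again lay below all others, and the tm1563, wild-type and SH libraries overlapped. On the log2 scale the 5p to 3p ratio averaged -7.75 ± 0.19 in wild type, -7.44 ± 0.25 in tm1563, -7.98 ± 0.27 in SH and -6.65 ± 0.40 in the ME line (SD, n = 3 each; exact permutation test over the 4 genotypes p = 0.00175, adjusted p = 0.00558 over 4 ratios). The mean difference of the ME line from wild type was 1.73 for mir-44 and 1.09 for mir-61 on the log2 scale, and from the SH line 1.37 and 1.33. Each of these pairs gave an exact two-sided permutation p of 0.1, the smallest that 3 against 3 libraries allow. Without ME library 1 the differences of mir-44 were 1.21 from wild type and 0.85 from the SH line, and those of mir-61 0.90 and 1.14.

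**Figure D3:**
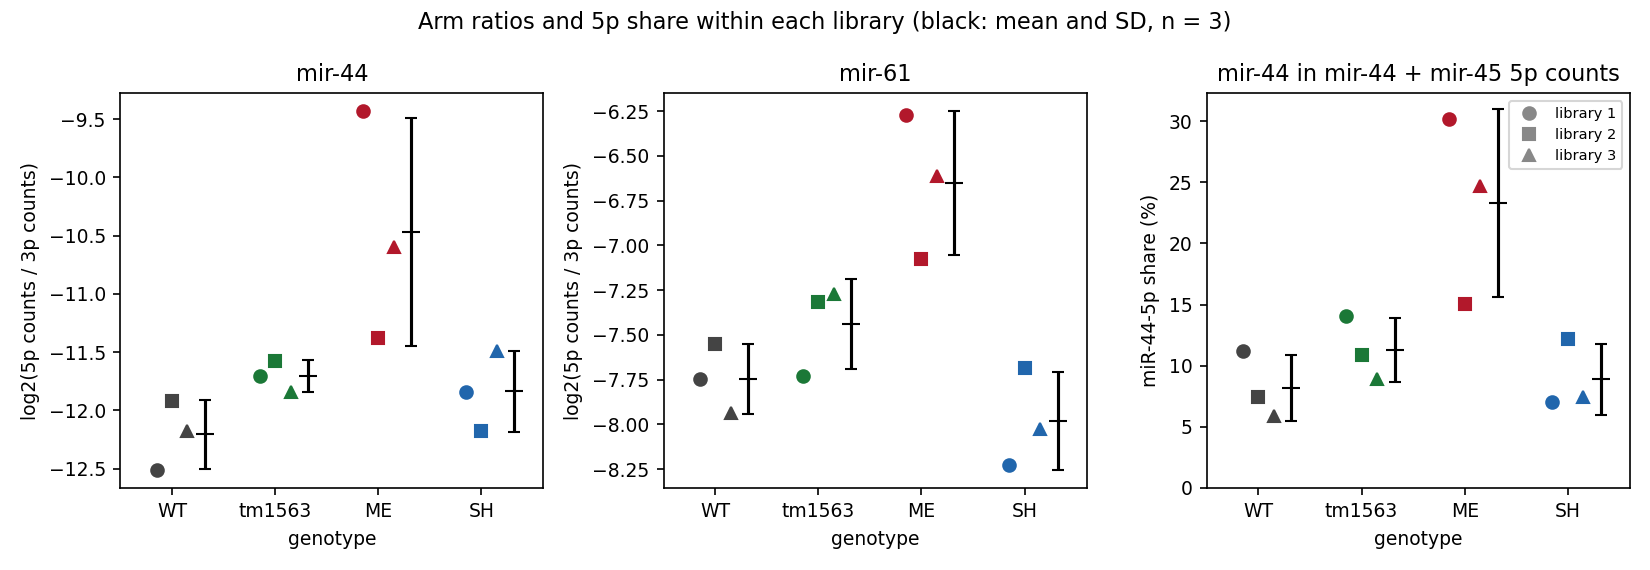
Left and middle, log2 ratio of 5p to 3p counts of mir-44 and mir-61 within each library (y axes, not starting at 0); right, miR-44-5p as a percentage of the miR-44-5p and miR-45-5p counts together (y axis from 0). Symbols are libraries by genotype, black bars the mean and SD of 3; the ME libraries lie above all others in each panel, with means of -10.47, -6.65 and 23.3%.

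Counts of miR-44-3p may hold reads of mir-45, and its 5p arm was therefore set beside that of mir-44, a comparison chosen after seeing the data. The 5p arms of the 2 hairpins are listed separately. miR-45-5p averaged 135 ± 41.8 CPM in wild type, 122.7 ± 7.97 in tm1563, 128.5 ± 19.6 in ME and 135.7 ± 28.9 in SH (SD, n = 3 each), with log2 fold changes from -0.15 to 0.006 in the 6 comparisons, each with an SE of 0.23 and none called. In the ME line miR-44-5p made up 30.2%, 15.1% and 24.7% of the 5p counts of both hairpins. That share was 11.2%, 7.46% and 5.86% in wild type, 14.1%, 10.9% and 8.88% in tm1563 and 6.99%, 12.2% and 7.44% in the SH line, all below the ME libraries. The exact permutation p over the 4 genotypes was 0.00825, not adjusted. With the 5p counts of both hairpins summed over miR-44-3p, the log2 ratio of the ME line differed from wild type by 0.23 in place of 1.73, and from the SH line by -0.012 in place of 1.37. The SH line then differed from wild type by 0.24, so the ME line no longer had the highest mean ratio. The size of the mir-44 difference thus depended on which 5p reads were set against the 3p reads. With the summed counts the ME and SH lines were nearly equal (-0.012), and their order was not tested.

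The 80 hairpins with both arms past the filter on low counts were compared by the ratio of the rarer arm to the commoner. Among them mir-44 had the 3rd and mir-61 the 8th highest difference between the ME line and wild type. The median over the 80 was 0.21 on the log2 scale, and the libraries of the ME line lay wholly above wild type for 20.0% of the hairpins, mir-44 and mir-61 among them. Between the ME and SH lines mir-44 was 6th and mir-61 7th, beside a median of 0.41 and 37.5% of hairpins with ME wholly above SH. In tm1563 against wild type they ranked 12th and 18th (0.50 and 0.31, median -0.14), and in the SH line 15th and 42nd (0.37 and -0.23, median -0.21). The ranks of mir-44 rest on miR-44-5p alone, and with the 5p counts of mir-44 and mir-45 summed it was 39th in the ME line against wild type (0.23) and 59th between the ME and SH lines (-0.012). The difference was positive for 47 of the 80 hairpins in the ME line against wild type and for 59 between the ME and SH lines. These ranks describe the libraries and were not tested.

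**Figure D4:**
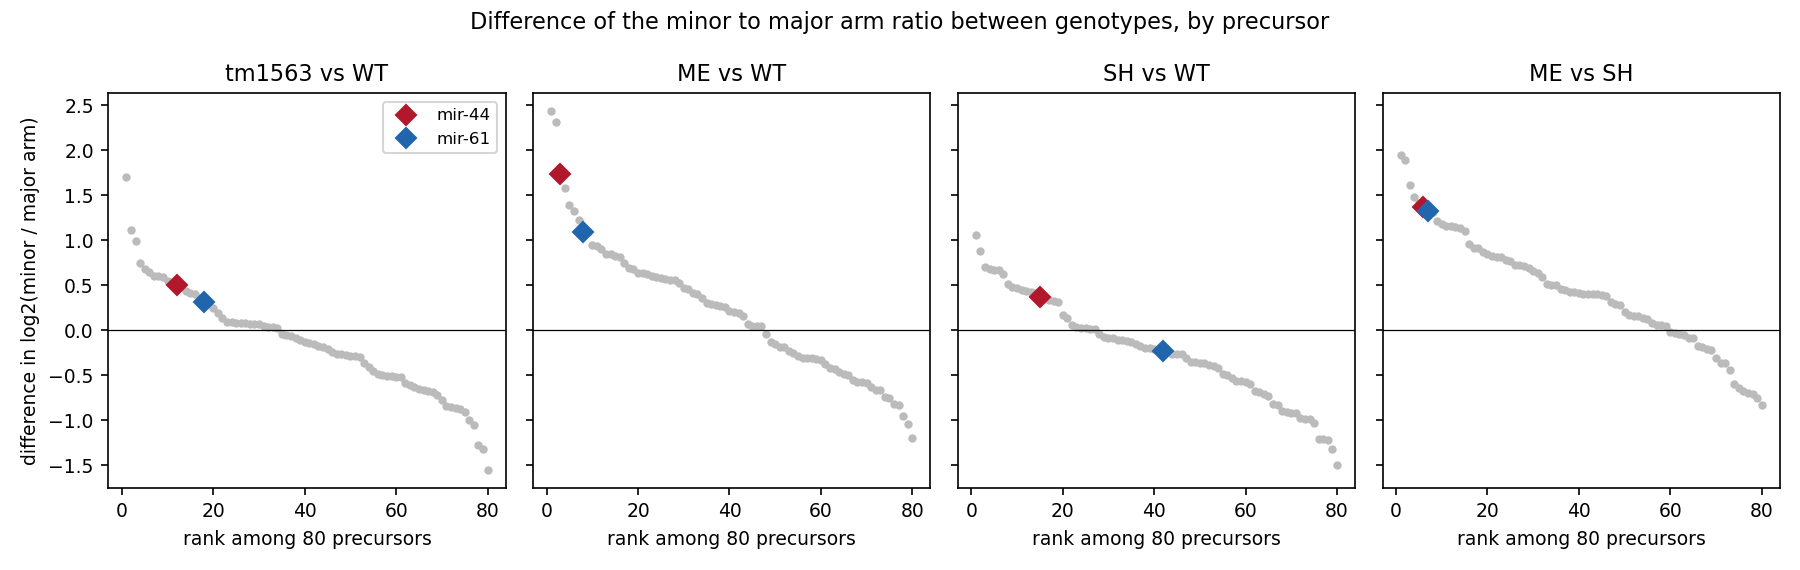
Difference between genotypes in the log2 ratio of the rarer to the commoner arm (y axis) for 80 hairpins in order of that difference (x axis, rank), in 4 comparisons; grey points are other hairpins. mir-44 (red) and mir-61 (blue) stand 3rd and 8th in the ME line against wild type and 6th and 7th between the ME and SH lines, with miR-44-5p alone over miR-44-3p; with miR-45-5p added, which is not drawn, mir-44 is 39th and 59th.

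The guide arms were also compared with each other, as ratios whose change between genotypes is independent of scaling. Ligation to adaptors favours some sequences, which was not measured here, so only changes of a ratio are read. Reads of miR-44-3p per read of miR-61-3p numbered 5.30, 4.44 and 3.72 in wild type, 6.86, 5.76 and 5.64 in tm1563, 6.30, 6.17 and 7.79 in ME and 3.89, 7.39 and 3.71 in SH. All tm1563 and ME libraries lay above the wild-type ones, and the SH libraries overlapped with all 3 other genotypes. The log2 ratio of miR-61-3p to miR-44-3p differed from wild type by -0.45 in tm1563, -0.60 in ME and -0.094 in SH, and the 4 genotypes together missed the threshold (exact permutation p = 0.161, also 0.161 adjusted over 4 ratios). That of miR-247-3p to miR-44-3p was higher than in wild type by 0.87 in ME, 0.51 in SH and 0.19 in tm1563 (exact permutation p = 0.108, adjusted p = 0.144).

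The hairpins that lie beside the members gave 8 arms, of which 7 were tested, and edgeR called 0 of them against wild type in tm1563, ME or SH, with 0, 5 and 1 at an unadjusted p under 0.05 and 0 called by DESeq2. Of all features, edgeR called 10.0%, 13.6% and 2.00%, and 25.6%, 32.4% and 14.4% had an unadjusted p under 0.05. In the ME line the median log2 fold change of the 7 arms against wild type was 0.71, with 0.07 over all features. Beside mir-44, miR-43-3p had 0.88 (SE 0.29) and miR-42-5p, a second arm counted 9 to 76 times per library, had 1.54 (SE 0.50), each at an edgeR adjusted p of 0.0505. Against the SH line miR-42-5p was called higher in the ME line (1.75, SE 0.52, edgeR adjusted p = 0.0309), and it was lower in tm1563 than in the ME line (-2.12, SE 0.53, edgeR adjusted p = 0.0189). In these comparisons miR-42-5p was the 1 call among the 7 arms, where 14.4% and 9.60% of all features were called. ME library 1 held 76 counts of it, and the other ME libraries 16 and 26. In fits added for this arm after seeing the data, neither call was made without that library, at 0.88 against the SH line (edgeR adjusted p = 0.342) and -1.39 for tm1563 against the ME line (adjusted p = 0.0967), and the value against wild type was 0.70 (adjusted p = 0.389). Both calls were also lost when some other single libraries were left out, and the call against the SH line with RLE size factors (1.58, edgeR adjusted p = 0.0607) and library totals (1.69, adjusted p = 0.0654). The guide of the next hairpin, miR-42-3p of the mir-35 family, had 0.61 in the ME line (SE 0.28, edgeR adjusted p = 0.140).

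Beside mir-61, the log2 fold changes of mir-250 in the ME line against wild type were -0.61 for miR-250-3p (SE 0.28, edgeR adjusted p = 0.140) and 0.11 for miR-250-5p (SE 0.30). These have the same signs as miR-61-3p and miR-61-5p, and did not pass. The log2 arm ratio of mir-250 in the ME line exceeded wild type by 0.85, the 13th of the 80 hairpins, and the SH line by 1.42, the 5th. Beside mir-247, miR-797-5p and miR-797-3p had 0.72 (SE 0.29, edgeR adjusted p = 0.102) and 0.71 (SE 0.35, edgeR adjusted p = 0.172), near the 0.87 of miR-247-3p.

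**Figure D5:**
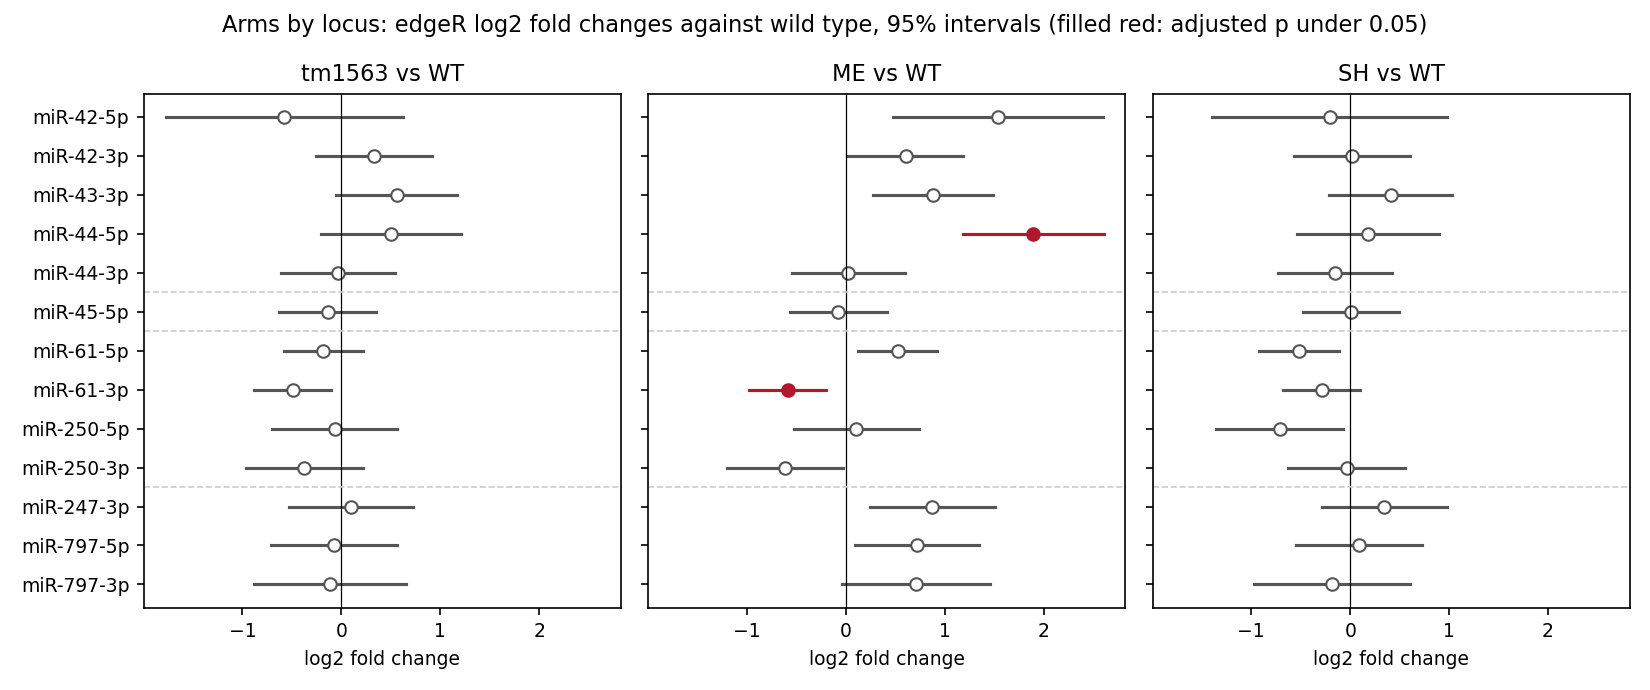
Log2 fold change against wild type (x axis) with its 95% interval for the tested arms of the members' hairpins and their neighbours, in order along each locus, with dashed lines between loci (edgeR; filled red, adjusted p under 0.05). In the ME line the 3 tested arms of mir-42 and mir-43 have 0.61 to 1.54 while miR-44-3p is at 0.03, and miR-61-3p and miR-250-3p are at -0.59 and -0.61.

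Across the 12 libraries, which share genotype, scaling and the libraries that stood apart, the members did not vary as 1 group. The log2 levels of miR-44-5p correlated with those of miR-61-5p at Pearson's r = 0.79 but a Spearman's rho of 0.39, and with those of miR-247-3p at r = 0.77 and rho = 0.70. Those of miR-61-3p and miR-247-3p had r = -0.56 and rho = -0.48. Between guide and second arm, miR-44-3p and miR-44-5p had r = 0.22 and rho = 0.29, and miR-61-3p and miR-61-5p r = -0.27 and rho = -0.14. Among all features tested, the levels most like those of miR-44-3p by Pearson's r were lin-4-5p (0.84), miR-1-3p (0.75) and miR-62 (0.72). The levels nearest to miR-44-5p were those of miR-4816-5p (0.89), miR-788-5p (0.88) and let-7-3p (0.87), and for miR-247-3p those of let-7-3p (0.87), miR-788-5p (0.83) and miR-58a-5p (0.82). The levels nearest to miR-61-5p were those of miR-86-3p (0.93), miR-4816-5p (0.85) and miR-231-5p (0.81), and for miR-61-3p those of miR-82-3p (0.82), miR-246-3p (0.82) and a predicted miRNA without a registered name (0.77). miR-788-5p and let-7-3p are, like the 2 second arms of the family, the rarer arms of their hairpins.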

How the data were processed

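Small RNA was sequenced from whole L4 larvae. The submitters' processing notes name Bowtie and DESeq2, with WBcel235 as the genome build. Not given in the sources used here are the counting program, the mismatches allowed and how reads with several matches were treated. The authors deposited read counts per mature arm, as whole numbers without normalization, and 0 library columns were left unmapped; the per-million columns were not used. The authors' comparison tables give, per the file headers, each group's mean normalized read count (a signal), the log2 fold change and both a raw and an adjusted p-value, for listed features only. The count columns coded CR_MED and CR_SH were taken for the authors' ME and SH because the codes are alike.

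All 12 libraries entered 1 edgeR quasi-likelihood fit (edgeR 4.0.16, R 4.3.3, robust) with a mean per genotype and no block, TMM scaling and filterByExpr (minimum count 10, minimum total 15). The features left out held 0.00490% of the counts. The Benjamini-Hochberg adjustment ran over all 250 tested features, and the threshold was 0.05. The fit was tested on simulated data, for the ME line against wild type. It called 5 of 208 unchanged features, 13 of 20 with a log2 change of size 1 and 19 of 19 with size 2. The median error of the unchanged features was 0.118 on the log2 scale. The simulation used 1 spread per feature for all genotypes, whereas miR-44-5p spread most in the ME line. Arm ratios used counts plus a pseudocount of 0.5 and exact permutation tests (scipy 1.17.1). For likeness, Pearson's r of log2 CPM was ranked over the features tested. Alternatives were RLE size factors, library totals, no filter, DESeq2 1.42.0, 2 groups alone, a replicate block and leaving out libraries. Reads carry no molecular identifiers. The 95% intervals come from the edgeR fit and include the spread between libraries as well as counting error.

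The named arms were the members, the other arms of the family, the arms of neighbouring hairpins and the 3 features most like each member. The members and lists were chosen with earlier results of these data known.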

Additional observations from a re-analysis of the deposited data

Results flagged for a closer look

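The effects of the mutant genotypes against the shared wild-type libraries differed for both second arms, by the direct contrast of the genotypes in the edgeR fit. For miR-44-5p the log2 fold change of the ME over the SH line was 1.72 (edgeR adjusted p = 0.00335), with all 3 ME libraries above all 3 SH libraries. The value of tm1563 against the ME line was -1.40 for the same arm (edgeR adjusted p = 0.0144), with 1 tm1563 library above the lowest ME library. The latter call was lost without tm1563 library 3 (-1.21, edgeR adjusted p = 0.0604) and without both wild-type library 1 and ME library 1 (-1.04, adjusted p = 0.0612).

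For miR-61-5p the ME line exceeded the SH line by 1.04 (edgeR adjusted p = 0.00232), and tm1563 against the ME line had -0.71 (edgeR adjusted p = 0.0237). The call between tm1563 and the ME line was lost with library totals (adjusted p = 0.0890), without both wild-type library 1 and ME library 1 (adjusted p = 0.0894) and in 4 of the 6 fits without 1 library. The 3 libraries of each genotype did not overlap in either comparison. In the ME line the mean of this arm lay above wild type, and in tm1563 and the SH line below it, though none of those differences from wild type passed the test by itself.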

How the results depend on the processing

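The calls of miR-44-5p in the ME line against wild type and against the SH line, and of miR-61-5p between these lines, were made under all alternatives run. Of 385 recomputed log2 fold changes, 329 kept their direction and side of the threshold, 10 passed and 16 failed where the reported value did not, and 30 changed sign, each of them an uncalled value. The number of members called in tm1563 against wild type was 1 in place of 0 by DESeq2 and with 2 groups alone. In the ME line against wild type it was 1 in place of 2 with 2 groups alone, with the replicate block and without both wild-type library 1 and ME library 1, and 1 to 3 with single libraries left out. In tm1563 against the ME line it was 1 in place of 2 with library totals, 0 without wild-type library 1 and ME library 1, and 0 to 3 with single libraries left out. With the block miR-61-3p in the ME line against wild type had -0.58 (edgeR adjusted p = 0.0664), and the block changed no other count of members. The library numbers showed no sign of pairing the samples, judged by log2 levels of the tested features after each genotype's mean was subtracted. These deviations correlated at -0.52 to 0.29 over 18 pairs of same-numbered libraries. Among libraries of the other genotypes, 1 of 12 libraries correlated best with a library of its own number. Whether same-numbered libraries were prepared together cannot be settled from so few libraries.

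Sign changes of miR-44-3p were, in tm1563 against wild type, 0.081 with library totals and 0.15 without wild-type library 1 and ME library 1, and 0.013 in the SH line without these. In the ME line against wild type they were -0.071 with RLE size factors, -0.027 without a filter, -0.059 by DESeq2 and -0.005 with 2 groups alone. With 2 groups alone miR-247-3p had -0.008 in tm1563 against wild type, and without wild-type library 1 and ME library 1 miR-61-3p had -0.025 in tm1563 against the ME line. With single libraries left out, miR-44-3p ranged from -0.27 to 0.15 in tm1563, -0.33 to 0.20 in the ME line and -0.47 to 0.044 in the SH line against wild type. It ranged from -0.19 to 0.50 between the ME and SH lines, -0.31 to 0.20 between tm1563 and the ME line and -0.11 to 0.44 between tm1563 and the SH line. miR-247-3p ranged from -0.11 to 0.35 in tm1563 and -0.046 to 0.59 in the SH line against wild type and -0.52 to 0.15 between tm1563 and the SH line, and miR-61-3p from -0.11 to 0.21 between tm1563 and the ME line. The cause of these changes was not tested.

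With the 5p counts of mir-44 and mir-45 summed, the difference in the mir-44 ratio against wild type was 0.007 in tm1563, 0.23 in ME and 0.24 in SH. The difference was -0.012 between the ME and SH lines, -0.22 between tm1563 and the ME line and -0.23 between tm1563 and the SH line. Adding miR-45-3p to the 3p counts was not run: miR-45-3p was not used here, and the miR-44-3p counts were the only 3p counts set against either hairpin. Scaling moved the median of all features in the ME line against wild type from 0.07 to -0.04 (RLE) or 0.13 (library totals), in tm1563 from 0.03 to -0.05 or 0.15, and between the ME and SH lines from 0.13 to -0.03 or 0.08. Over all features, tm1563 against wild type had 13 higher and 12 lower calls, 16 and 22 by DESeq2, or 14 and 1 when scaled by library totals, and the ME against the SH line had 27 and 9, or 10 and 8 with library totals. Counts of miR-44-5p were as few as 75 per library, and miR-247-5p had under 3 in every library and was not tested. The ME libraries, with 477, 152 and 312 counts of miR-44-5p, spread most (SD 20.7 CPM), and the wild-type libraries least (SD 0.511 CPM).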
